A study of Mus musculus with 10 samples.

Results

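The cathepsins are the main protein-cutting enzymes of the lysosome, and 10 of their genes were followed here in the cortex of 5XFAD mice with and without neuronal deletion of Idol: Ctsa, Ctsb, Ctsc, Ctsd, Ctsf, Ctsh, Ctsk, Ctsl, Ctss and Ctsz. They were chosen by symbol, through the GENCODE names of the Ensembl identifiers in the deposited counts, and all 10 were found among the 53700 identifiers and passed the filter on low counts. Ctsd and Ctss were lower with the label 5XFAD;Neu cKO, at 61.9% and 53.2% of their 5XFAD means, and the other 8 members did not pass the test.

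Cortices of 10 female mice aged 4 months were compared by QuantSeq 3′ RNA-seq, 5 labelled 5XFAD and 5 labelled 5XFAD;Neu cKO. All carry the 5XFAD transgenes, human genes with mutations of familial Alzheimer's disease placed in mouse Thy1 sequence and expressed in neurons. The labels give Idol in both groups, with Camk2a-cre WT for 5XFAD and Camk2a-cre cKO for 5XFAD;Neu cKO. In the latter a Cre driven by the Camk2a promoter, active mainly in excitatory neurons of the forebrain, removes floxed Idol (Mylip), a ubiquitin ligase that lowers lipoprotein receptors. Cre therefore acts in neurons, while the RNA was taken from whole cortical tissue. Neither mice without 5XFAD nor mice with Cre alone were among these libraries. Mylip was counted 45 to 108 times per library in 5XFAD and 50 to 148 times in 5XFAD;Neu cKO. It did not separate the groups (log2 fold change 0.39, SE 0.25, adjusted p = 0.777 in edgeR). These counts are summed per gene from reads of the 3′ end and do not resolve the floxed part, so they cannot test the deletion. By quantitative PCR of cortex, the authors reported lower Idol mRNA in mice with the neuronal deletion. The groups are named by their labels throughout. Each 5XFAD library held 4320504 to 7466192 reads on genes, and each library of the other group 5148499 to 7246659.

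Cathepsins are made as inactive precursors, carried to the endosome and lysosome largely by mannose 6-phosphate receptors, and activated there by the acid pH. Most members are cysteine proteases of the papain family (Ctsb, Ctsc, Ctsf, Ctsh, Ctsk, Ctsl, Ctss and Ctsz), Ctsd is an aspartic protease and Ctsa a serine carboxypeptidase. In brain, neurons and glia share many of them, while Ctss is expressed mostly by microglia and other myeloid cells. They degrade proteins taken up from outside the cell and those delivered by autophagy. Inherited loss of Ctsd or Ctsf causes forms of neuronal ceroid lipofuscinosis, a storage disease of neurons.

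In the 5XFAD libraries the members spanned a wide range of levels, given here as CPM (counts scaled to a common library size after TMM normalization). A QuantSeq read comes from the 3′ end of a transcript, so longer transcripts do not gather more reads. Of the reads on genes, on no gene or ambiguous between genes, 31.3% to 39.9% in a library fell on no gene. Whether this loss differs between genes was not tested, so the order of genes given here is one of counted reads. Ctsd was the highest of the 10 at 351 ± 43.1 CPM (SD, n = 5), followed by Ctsb at 299 ± 30.6 and Ctss at 154 ± 27.2. Ctsl, Ctsa, Ctsf, Ctsz and Ctsh lay between 76.2 and 13.5 CPM, and Ctsc and Ctsk were the lowest at 6.32 ± 3.44 and 2.39 ± 1.43 CPM. Together the 10 genes took 0.0887% to 0.106% of the reads on genes in the 5XFAD group and 0.0659% to 0.0769% in the 5XFAD;Neu cKO group, with no overlap between the groups. Most neighbours in the order of mean levels kept their places within a library. Ctsb lay above Ctss, Ctsl above Ctsa, and Ctsh above Ctsc in 10 of 10 libraries, while Ctsa lay above Ctsf in 6 of 10 and Ctsc above Ctsk in 7 of 10, so that neither of these last pairs is ordered beyond its spread.

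**Figure D1:**
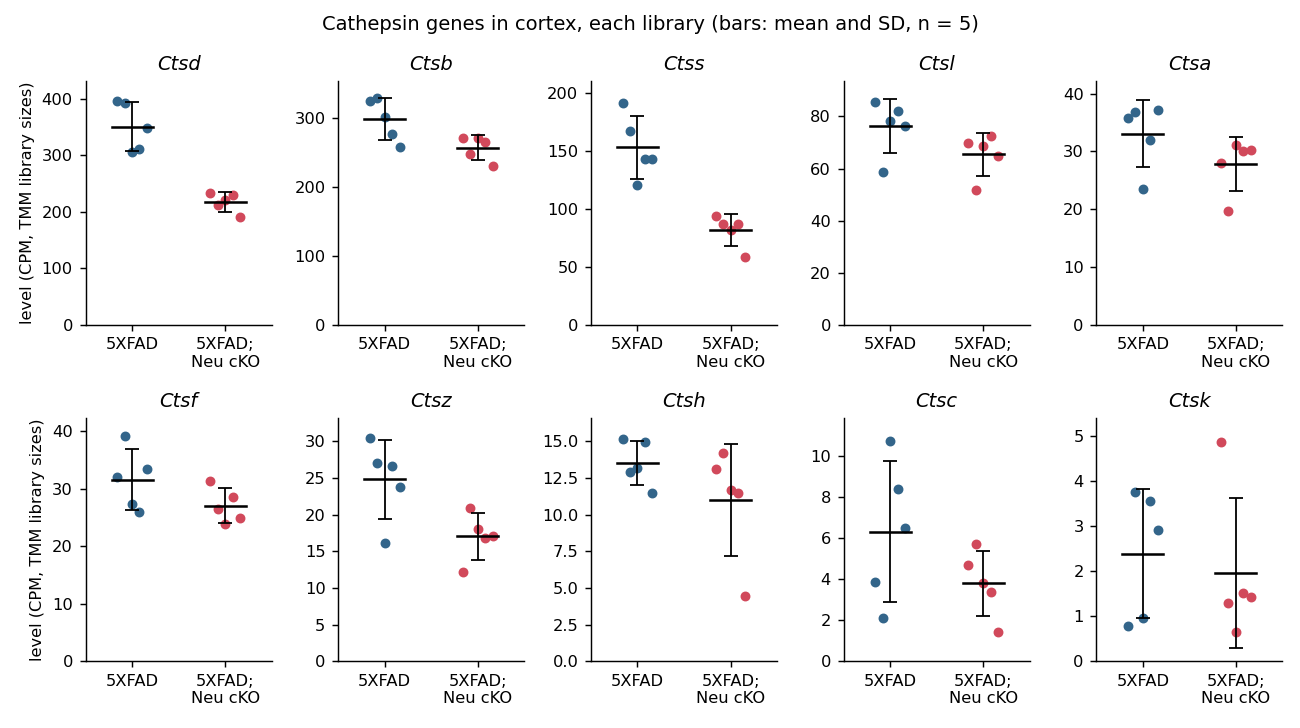
Level of each cathepsin gene in CPM (vertical axes, each from 0) in the 5 libraries labelled 5XFAD (blue) and the 5 labelled 5XFAD;Neu cKO (red); points are libraries and bars the mean and SD. The 5XFAD;Neu cKO libraries lie below all 5XFAD libraries for Ctsd and Ctss, and the groups overlap for the other 8 genes.

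Ctsd, the major aspartic protease of the lysosome, lies on chromosome 7 of GRCm39 from 141929646 to 141941775 (minus strand, ENSMUSG00000007891). It was at 397, 393, 306, 311 and 348 CPM across the 5 replicates of 5XFAD, and 234, 212, 220, 230 and 190 CPM across those of 5XFAD;Neu cKO, from 1152 to 2253 reads in a library. The groups were apart, with the highest 5XFAD;Neu cKO library well under the lowest 5XFAD library. The log2 fold change was -0.69 (SE 0.09, adjusted p = 5.24e-07 in the quasi-likelihood test of edgeR, adjusted by Benjamini-Hochberg over 19268 genes), and the exact two-sided permutation test gave p = 0.00794, the smallest p that 5 against 5 libraries allow.

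Ctss, a cysteine protease that stays active at neutral pH and trims the invariant chain of MHC class II molecules, lies on chromosome 3 of GRCm39 from 95433963 to 95463717 (plus strand, ENSMUSG00000038642). It was at 192, 168, 121, 143 and 144 CPM across the 5 replicates of 5XFAD, and 93.7, 87.4, 81.7, 87.2 and 58.6 CPM across those of 5XFAD;Neu cKO, from 408 to 991 reads. These groups did not overlap either, and replicate 3 was the lowest of the 5XFAD libraries for Ctss as it was for Ctsd. The log2 fold change was -0.91 (SE 0.11, adjusted p = 5.24e-07 in edgeR), and the permutation p was again the smallest possible (exact two-sided test, p = 0.00794). In bulk tissue, fewer cells of a type and less RNA per cell cannot be told apart, and this holds for every level given here.

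With 1 library left out at a time, the log2 fold change of Ctsd stayed between -0.74 and -0.64 and that of Ctss between -0.99 and -0.81, and both passed the test in 10 of 10 such fits. DESeq2, the tool the authors used, gave adjusted p-values of 1.02e-11 for Ctsd and 8.87e-09 for Ctss on the same counts, and called 1.25% of the genes to which it gave an adjusted p. Among all 19268 genes tested, 0.161% passed as lower and 0.218% in either direction, against 2 of the 10 cathepsins, both lower. The authors had already reported both genes as downregulated in this RNA-seq, and the members were chosen with earlier results known. These shares therefore describe the list and are no independent support. The groups failed to overlap in the lower direction for these same 2 members, and for 0.721% of all genes (1.3% in either direction).

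Promoter sequences are shown for these 2 members and for Ctsa, because they carry letters that factors of lysosomal and myeloid genes are known to bind. They come from RefSeq windows of 250 bases before to 50 after the gene start, in build GRCm38.p6, which is older than the build of the counts. By symbol 8 of the 10 members matched, Ctsa with 2 starts, and Ctsb and Ctsh did not. The stretches below run 5′ to 3′ from 120 bases before the start to 20 after it, at chr7:142387808-142387947 (minus strand) for Ctsd, chr3:95526666-95526805 (plus strand) for Ctss and chr2:164833653-164833792 (plus strand) for the second start of Ctsa. Capitals mark TCACGTGA in Ctsd and Ctsa and the reverse complement of GAGGAAGT in Ctss.
Ctsd: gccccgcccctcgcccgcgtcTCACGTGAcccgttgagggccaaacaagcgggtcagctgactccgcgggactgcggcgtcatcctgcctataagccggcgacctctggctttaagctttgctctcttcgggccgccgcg
Ctss: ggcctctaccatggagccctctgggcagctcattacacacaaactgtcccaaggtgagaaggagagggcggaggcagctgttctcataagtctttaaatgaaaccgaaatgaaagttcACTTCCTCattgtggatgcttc
Ctsa: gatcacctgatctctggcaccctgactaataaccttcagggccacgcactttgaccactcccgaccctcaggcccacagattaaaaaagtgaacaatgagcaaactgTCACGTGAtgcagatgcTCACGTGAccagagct

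CACGTG is the E-box that TFEB and its relatives, regulators of many lysosomal genes, bind, and GAGGAAGT is of the kind that the myeloid factor PU.1 (Spi1) binds. Each motif was searched on both strands in all 32851 windows of the table. CACGTG occurred in 7.15% of them and in 4 of the 8 matched members (Ctsa, Ctsd, Ctsf and Ctsl). TCACGTGA, which contains CACGTG, occurred in 0.974% of windows and in 2 members (Ctsa and Ctsd). The percents are of windows while members are counted as genes, 8 genes with 9 windows, so the units differ. GAGGAAGT occurred in 3.20% of windows and in Ctsc and Ctss. In Ctss it spans the start, from 2 bases before it to base 6 of the transcript. The window of Ctsd holds TCACGTGA 99 to 92 bases before the start and a further CACGTG 245 to 240 bases before it. Ctsa carries TCACGTGA on both sides of its second start. Any part of these motifs in the levels of the members was not tested. A match is a run of letters and does not show binding.

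**Figure D2:**
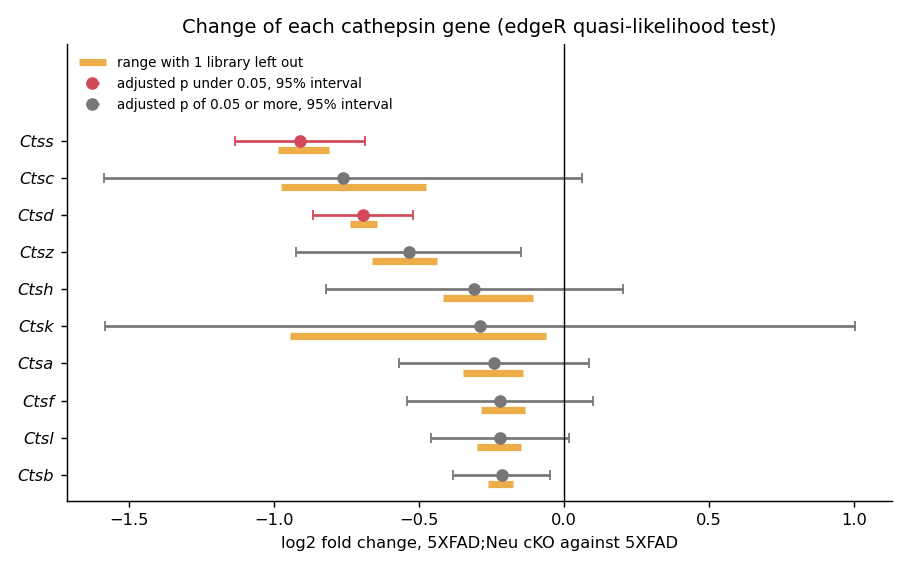
Log2 fold change of each cathepsin gene, 5XFAD;Neu cKO against 5XFAD (horizontal axis), with its 95% interval from edgeR; red points passed the threshold of an adjusted p under 0.05, and orange bars give the range when each library was left out in turn. All 10 estimates lie below 0, and the estimates of Ctsd and Ctss passed.

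Among the other cysteine cathepsins the differences were smaller or less certain. Ctsz (chromosome 2, 174267304 to 174280832), a carboxypeptidase also called cathepsin X, was at 30.4, 27.0, 16.2, 26.7 and 23.8 CPM across the 5 replicates of 5XFAD, and 12.2, 21.0, 18.1, 16.8 and 17.1 CPM across those of 5XFAD;Neu cKO. Replicate 3 of 5XFAD alone lay within the range of the other group. The log2 fold change was -0.53 (SE 0.19), which had an unadjusted p of 0.00776 and did not pass after adjustment (0.421 in edgeR), and the exact two-sided permutation test gave p = 0.0397.

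Ctsb (chromosome 14, 63358384 to 63383372), which acts both as an endopeptidase and as a dipeptidyl carboxypeptidase, was at 326, 329, 303, 277 and 259 CPM in 5XFAD and at 271, 249, 272, 265 and 230 CPM in 5XFAD;Neu cKO. The groups overlapped, although every 5XFAD;Neu cKO library lay under the 5XFAD median. Its log2 fold change of -0.21 had an SE of 0.08 and a 95% interval of -0.38 to -0.05 (edgeR, unadjusted p = 0.0132, adjusted p = 0.450), so a fall as large as that of Ctsd lies outside the interval.

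Ctsl, an endopeptidase broadly expressed in lysosomes, was at 76.2 ± 10.4 CPM in 5XFAD and 65.5 ± 8.17 CPM in 5XFAD;Neu cKO (SD, n = 5). Its log2 fold change was -0.22 (SE 0.12, adjusted p = 0.677 in edgeR). Ctsf, whose loss leads to a neuronal storage disease, was at 31.6 ± 5.26 and 27.0 ± 3.02 CPM (-0.22, SE 0.16, adjusted p = 0.835). Ctsh, an aminopeptidase, was at 13.5 ± 1.52 and 11.0 ± 3.80 CPM (-0.31, SE 0.26, adjusted p = 0.871). The 95% interval of each of these 3 genes includes 0, and their groups overlapped.

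Ctsc, also called dipeptidyl peptidase I, which activates the serine proteases of granulocytes and cytotoxic cells, had the second lowest estimate of the family and one of its least precise. It was counted 20, 9, 79, 45 and 29 times in 5XFAD and 25, 31, 29, 20 and 10 times in 5XFAD;Neu cKO, a log2 fold change of -0.76 with a 95% interval of -1.58 to 0.06 (adjusted p = 0.681 in edgeR). The 5XFAD libraries alone spread more widely than the groups differed. Ctsk, the collagen-cutting cathepsin of osteoclasts, whose gene ends 17230 bases before that of Ctss starts on the same strand of chromosome 3, was counted only 4 to 26 times in a library, and its interval of -1.58 to 1.00 left both directions possible at this depth (adjusted p = 0.973).

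Ctsa, the serine carboxypeptidase that also protects sialidase (Neu1) and beta-galactosidase (Glb1) in a complex, was at 33.1 ± 5.75 CPM in 5XFAD and 27.8 ± 4.69 CPM in 5XFAD;Neu cKO (SD, n = 5). Its log2 fold change was -0.24 (SE 0.16, adjusted p = 0.808 in edgeR). The 3′ ends of Ctsa, Ctsb, Ctsf and Ctsz overlap or adjoin genes on the opposite strand (Pltp, Fdft1, Actn3 and Nelfcd, with 1084, 1348, 61 and 517 reads over all libraries). The authors named a QuantSeq FWD kit and the settings its maker advises, but the strand setting of the counting was not given in the sources used here. The counts of these genes are thus less certain than that of Ctss, which no listed gene on the opposite strand overlaps. Gm49369, which overlaps Ctsd on its own strand, was counted 0 times. Hmgb1-ps5, which overlaps Ctss on its own strand, had 5 reads over all libraries.

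Counted over the family, 10 of 10 estimates were below 0, against 50.1% of all genes tested, with a median of -0.30 against -0.00056 for all genes. The members were chosen with earlier results of these data known, so the counts in this paragraph describe the list. An unadjusted p under 0.05 in the lower direction was found for 4 of the 10 (Ctsd, Ctss, Ctsz and Ctsb) and for 4.01% of all genes, and for 0 members in the higher direction. In 8 of the 10 members every 5XFAD;Neu cKO library lay below the 5XFAD median. No share over all genes was computed for this looser measure, so the count only describes the members. The summed level of the family was 899.5 to 1118 CPM in 5XFAD libraries and 623 to 763 CPM in 5XFAD;Neu cKO libraries. Of the difference between the 2 group means, 280 CPM, Ctsd made up 47.7%, Ctss 25.6% and Ctsb 14.7%. Without Ctsd and Ctss the other 8 genes summed to 450 to 529 CPM and 374 to 435 CPM, so that these sums did not overlap either. Ctsb, whose own groups overlapped, averaged 299 CPM of a mean sum of 486 in 5XFAD and 257 of 412 in 5XFAD;Neu cKO. None of the 8 genes passed the test, and no share over all genes was computed for such sums. Replicate 5 of 5XFAD;Neu cKO was the lowest of all 10 libraries for 5 members, and replicate 1 of 5XFAD the highest for 5.

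The balance within the family was compared by ratios in the same library, which do not depend on library size. Ctsd exceeded Ctsb in 5 of 5 5XFAD libraries and in 0 of 5 5XFAD;Neu cKO libraries. The ratio of their counts was 1.22, 1.19, 1.01, 1.12 and 1.34 across the 5 replicates of 5XFAD, and 0.863, 0.852, 0.810, 0.867 and 0.826 across those of 5XFAD;Neu cKO. Thus the cathepsin with the most counted reads was Ctsd in one group and Ctsb in the other, with replicate 3 of 5XFAD near equality. The 3′ end of Ctsb overlaps or adjoins a gene on the opposite strand, so which of them leads holds for the counts only. The change of their ratio did not pass after adjustment over all pairs (exact permutation test, adjusted p = 0.0893). As shares of the reads on the 10 genes, Ctsd made up 33.7% to 36.9% in 5XFAD and 30.1% to 30.8% in 5XFAD;Neu cKO, Ctsb 27.5% to 33.6% and 35.5% to 37.2%, and Ctss 13.4% to 17.2% and 9.41% to 12.7%.

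**Figure D3:**
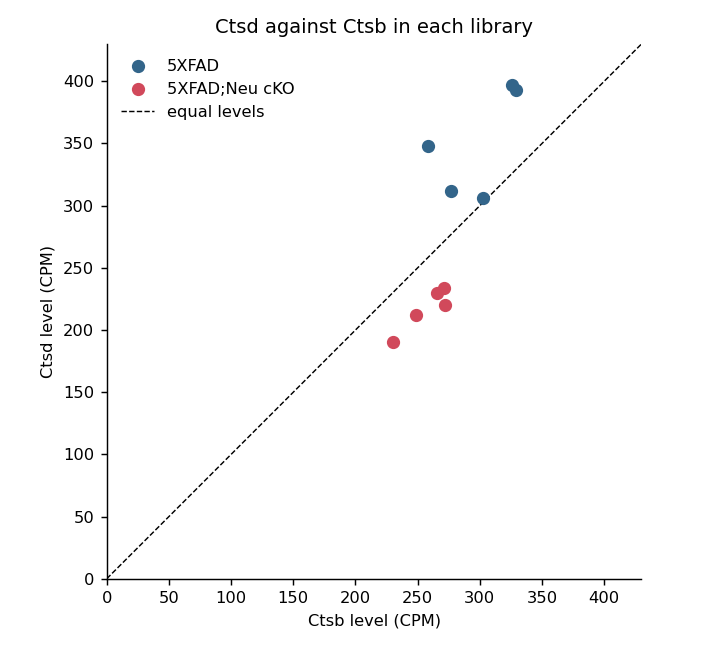
Level of Ctsd (vertical axis, CPM) against that of Ctsb (horizontal axis, CPM) in each library, blue for 5XFAD and red for 5XFAD;Neu cKO; the dashed line marks equal levels. The 5 5XFAD libraries lie above the line and the 5 5XFAD;Neu cKO libraries below it.

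All 45 pairs of members were compared with exact two-sided permutation tests of the mean log2 ratio. None passed after Benjamini-Hochberg adjustment over the pairs. With no help from pairs at larger p-values, 8 pairs at the smallest p that 5 against 5 libraries allow would be needed to pass. That p, 0.00794, was reached by 4 pairs, with an adjusted p of 0.0893 each (exact permutation tests). Relative to Ctsb, Ctss was lower by a log2 difference of -0.70 and Ctsd by -0.48, and relative to Ctsf by -0.69 and -0.47, each with no overlap between the groups. Ctss relative to Ctsd differed by -0.22 (p = 0.0317, adjusted p = 0.159, exact permutation test). An unadjusted p under 0.05 was found for 10 of the 45 pairs, and pairs share members, so these are not independent.

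Markers of microglia, the resident macrophages of the brain, were lower as well. Of 20 listed microglial markers, none of them a cathepsin, 19 were found. Estimates were below 0 for 19 of 19, with a median of -0.53, against 50.1% of all genes tested. An unadjusted p under 0.05 was found for 14, all lower, against 4.01% of all genes in that direction. Past the threshold as lower were 6, against 0.161% of all genes. The same shares over all genes apply to the other marker lists below. The summed level of these markers was 576 ± 94.1 CPM in 5XFAD and 384 ± 24.9 CPM in 5XFAD;Neu cKO (SD, n = 5). This was a log2 difference of -0.57 with no overlap (exact two-sided permutation test, p = 0.00794). The marker lists were chosen with earlier results of these data known. Csf1r and Tyrobp of the microglial list had been reported by the authors as downregulated in this RNA-seq. The counts and the p-value therefore describe the list and are no independent support. No marker of the list was at 0 in every library. Genes of plaque-associated microglia, a state in which several cathepsins are known to be raised, had 11 of 13 estimates below 0 with a median of -0.42, and 1 passed as lower. Oligodendrocyte markers were below 0 in 8 of 8 cases with a median of -0.28, 5 of them at an unadjusted p under 0.05 and 0 past the threshold, and summed to 1975 to 2911 CPM in 5XFAD and 1787 to 2809 CPM in 5XFAD;Neu cKO. Astrocyte markers were below 0 in 8 of 9 cases with a median of -0.13, 4 of them at an unadjusted p under 0.05 and lower and 1 past the threshold, with sums of 4374 to 5117 and 4245 to 4864 CPM. The part of these glial markers in the cathepsin differences was not tested. Excitatory neuron markers had a median of -0.06 with 0 of 6 passing, border macrophage markers 0.12 with 0 of 8 and endothelial markers 0.02 with 0 of 6. Among markers of inhibitory neurons, fibroblasts and mural cells, choroid plexus and the neighbouring striatum, 0 passed in either direction. Neutrophil and monocyte markers summed to 0 to 2.72 CPM in 5XFAD and 0 to 1.85 CPM in 5XFAD;Neu cKO, with Camp, Elane and Mpo at 0 in every library. All 5 red cell genes had estimates above 0 and 2 passed as higher, with sums of 6.34 to 51.4 CPM in 5XFAD and 46.9 to 211 CPM in 5XFAD;Neu cKO, and their part in the cathepsin differences was not tested.

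Each member was therefore also expressed as a percent of the summed microglial markers of its own library. Ctss was 28.9, 25.3, 26.1, 24.4 and 29.0% of the marker sum across the 5 replicates of 5XFAD, and 24.4, 21.1, 21.0, 22.9 and 17.0% across those of 5XFAD;Neu cKO. The lowest 5XFAD library and the highest 5XFAD;Neu cKO library both round to 24.4%, and the groups did not cross. The log2 difference was -0.34 (exact two-sided permutation test, p = 0.00794, adjusted over the 10 members 0.0794). This is the smallest p that the design allows, and a single one of the 10 members at it cannot pass by itself after adjustment (2 at it would), so the adjusted value is limited by the number of libraries. Ctsd was 61.6 ± 6.71% of the sum in 5XFAD and 56.7 ± 4.02% in 5XFAD;Neu cKO (SD, n = 5). Its log2 difference was -0.11 (exact permutation p = 0.214, adjusted 0.357), and the groups overlapped. Neither gene passed after adjustment, and Ctss compared directly with Ctsd differed by -0.22 (exact permutation test, adjusted p = 0.159).

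Ctsb had a difference of the opposite sign, at 52.6 ± 7.38% in 5XFAD and 67.2 ± 4.36% in 5XFAD;Neu cKO (SD, n = 5; log2 difference 0.36, exact permutation p = 0.0159, adjusted 0.0794). Ctsf (0.36, exact permutation p = 0.0397), Ctsl (0.36) and Ctsa (0.32) had positive differences too, none of which passed after adjustment (adjusted p = 0.132, 0.238 and 0.302, exact permutation tests). The difference was 0.05 for Ctsz, 0.19 for Ctsh, 0.29 for Ctsk and -0.04 for Ctsc. In total 0 of the 10 members passed after adjustment. Without adjustment 3 had an exact permutation p under 0.05, Ctss lower and Ctsb and Ctsf higher relative to the marker sum. That sum itself differed by -0.57, and the log2 fold changes of Ctsb and Ctsf were -0.21 and -0.22. A positive difference here is thus a smaller fall than that of the markers, and does not show a rise of the gene.

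**Figure D4:**
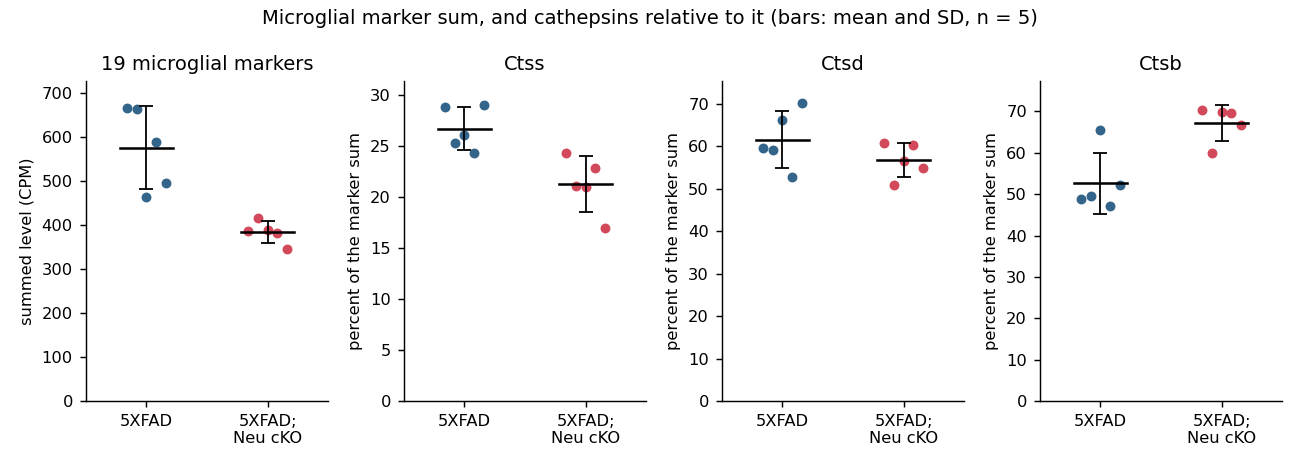
Summed level of 19 microglial markers in CPM (left) and the levels of Ctss, Ctsd and Ctsb as a percent of that sum, for each library of 5XFAD (blue) and 5XFAD;Neu cKO (red); bars are the mean and SD. The marker sum is lower in all 5 5XFAD;Neu cKO libraries, Ctss averages 26.7% and 21.3% of it, Ctsb 52.6% and 67.2%, and Ctsd overlaps between the groups.

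Genes that act with the cathepsins were counted in 6 lists of 51 genes in all, of which 33 passed the filter on low counts and 0 passed the test in edgeR, against 0.218% of all genes. Their median log2 fold change was -0.10, with 19 of 33 below 0. Without adjustment 5 had a p under 0.05, all lower (Cst7, Ctla2a, Grn, Neu1 and H2-Eb1, named after their values were seen), and 0 higher. Over all genes, 4.01% were lower at that p. DESeq2 called none of the partner genes for which it gave an adjusted p.

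Of the inhibitors, Cst3 (cystatin C, a secreted inhibitor of cysteine cathepsins) was the most abundant at 1658 ± 240 CPM in 5XFAD and 1534 ± 200 CPM in 5XFAD;Neu cKO (SD, n = 5). Its log2 fold change was -0.11 (SE 0.08, adjusted p = 0.817 in edgeR). Both means lay above the summed level of the 10 cathepsins, which averaged 991 and 710 CPM. Cst7 (cystatin F, an inhibitor of Ctsc and other cathepsins that is made by myeloid cells) was at 9.60 ± 4.90 and 3.12 ± 1.43 CPM, with a log2 fold change of -1.62, an SE of 0.40 and an adjusted p of 0.0700 (edgeR). Ctla2a, homologous to the propeptide of cathepsins, was at 6.41 ± 1.23 and 3.30 ± 0.45 CPM (-0.96, adjusted p = 0.458). The stefin genes Csta1, Stfa1, Stfa2, Stfa2l1 and Stfa3 were at 0 in every library.

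Among the genes for maturation and complexes, Psap (prosaposin, the precursor of lysosomal activator proteins, which Ctsd cuts) was at 663 ± 22.3 and 603 ± 48.5 CPM (SD, n = 5). Its log2 fold change was -0.14 (SE 0.07, adjusted p = 0.667 in edgeR). Grn (progranulin, cut into granulins by cathepsins) was at 42.8 ± 8.73 and 27.0 ± 9.13 CPM, with a log2 fold change of -0.66, an SE of 0.17 and an adjusted p of 0.0994. Neu1, the sialidase held by Ctsa, was at 51.0 ± 10.2 and 41.2 ± 4.08 CPM (-0.31, adjusted p = 0.545). All 5 genes of the list, Lgmn and Glb1 included, had estimates below 0, and that of Lgmn, the protease that matures several cathepsins, was -0.01.

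Genes that sort cathepsins to the lysosome had estimates on both sides of 0. Of the 9 in the list, 3 were below 0 and 6 above, with a median of 0.05, and 0 had an unadjusted p under 0.05. Sort1 (sortilin, a sorting receptor) was at 189 ± 14.4 and 172 ± 11.5 CPM (-0.14, adjusted p = 0.778 in edgeR), and Vps35 (a core subunit of the retromer that recycles such receptors) at 119 ± 10.8 and 117 ± 9.97 CPM (-0.03, adjusted p = 0.984).

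The MHC class II genes, whose invariant chain (Cd74) Ctss trims, were low, summing to 17.7 to 28.6 CPM over 7 genes in 5XFAD and 13.1 to 19.3 CPM in 5XFAD;Neu cKO. H2-Eb1 was counted 12 to 19 times in 5XFAD and 0 to 14 times in 5XFAD;Neu cKO (log2 fold change -2.03, SE 0.72, adjusted p = 0.390 in edgeR), and 4 of the 7 genes had estimates above 0. Of the transcription factors, Tfeb, Tfe3, Mitf, Spi1 and Irf8 were tested and 0 passed, with a median of 0.22. Of 13 further cathepsin genes, Ctso alone passed the filter (-0.20, adjusted p = 0.946), 9 were at 0 in every library, and Ctse, Ctsg and Ctsw reached at most 6 reads in a library.

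**Figure D5:**
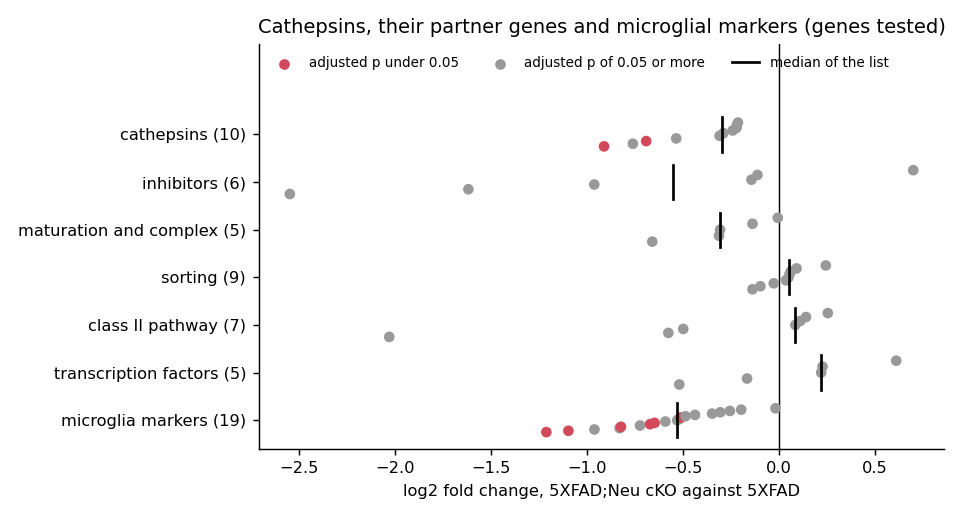
Log2 fold change of each gene tested, 5XFAD;Neu cKO against 5XFAD (horizontal axis), for the cathepsins, 5 lists of partner genes and the microglial markers, with the number of genes tested in brackets; red points had an adjusted p under 0.05 and black bars are list medians. Red points occur among the cathepsins (Ctsd and Ctss) and the microglial markers, and in none of the partner lists.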

How the data were processed

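The authors extracted RNA from cortex, had QuantSeq 3′ libraries made and sequenced as single reads, and trimmed the reads. They aligned them with STAR 2.7.3a to GRCm39 and used htseq-count for reads per Ensembl gene. HTSeq 0.9.1 is named in the submitters' processing notes, and a later version in the methods of the paper. Raw counts per gene and library were deposited without normalization. Libraries were labelled as separate replicates of each group, taken here as 1 mouse each.

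Genes whose counts summed to at most 10 were left out, so that 19268 were tested. The groups were fitted with edgeR 4.0.16 in R 4.3.3 (TMM, glmQLFit and glmQLFTest, condition as the only term) at an adjusted p of 0.05, and per gene or ratio with exact two-sided permutation tests of log2 CPM (prior count 2) over 252 relabellings. The fit was tested on simulated data. Depth limits genes of few reads, as Ctsk and Ctsc. Alternatives were DESeq2 1.42.0, its size factors, 2 other filters on low counts, a robust fit, removal of mitochondrial genes, a replicate block, each library left out and, for ratios, a prior count of 0.5 and mean log2 marker levels. One planned marker list for the ratios is not reported here.

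The rule for named partner genes was a call past the threshold or a mean of at least 100 CPM, and 5 more, at an unadjusted p under 0.05, were named after their values were seen. The members and lists were chosen with earlier results of these data known.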

Additional observations from a re-analysis of the deposited data

Results flagged for a closer look

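In 3 of the 22 groups of 5 libraries examined for a library far from the others (the gap to its neighbour over the range of the group, against Dixon's critical value of 0.71), 1 library stood apart, where chance gives about 1 in 20 groups. Ctsa was at 19.7 CPM in 5XFAD;Neu cKO replicate 2 and at 28.0 to 31.1 CPM in the other 4. Ctsh was at 4.45 CPM in 5XFAD;Neu cKO replicate 5, from 31 reads, and at 11.4 to 14.2 CPM in the others. Ctsk was at 4.86 CPM in 5XFAD;Neu cKO replicate 1, from 26 reads, and at 0.656 to 1.51 CPM in the others. Without the library that stood apart, the log2 fold change was -0.14 for Ctsa (-0.24 with it), -0.10 for Ctsh (-0.31) and -0.95 for Ctsk (-0.29). None of these 3 genes passed the test with or without any single library.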

How the results depend on the processing

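Ctsd and Ctss passed as lower, and all 10 cathepsin estimates stayed below 0, in every fit that gave them an estimate: Ctsk was removed by filterByExpr, and DESeq2 gave no adjusted p for Ctsc, Ctsh, Ctsk, Ctsz or Cst7. No other cathepsin passed in any of these fits. The count of partner genes past the threshold, 0 as reported, was 2 without the filter on low counts (Grn and Cst7, adjusted p = 0.00624 and 0.00857), 1 in a robust edgeR fit (Cst7, 0.0332), 2 with the replicate block (Grn and Cst7, 0.00355 and 0.0226), and 0 to 2 with a library left out: 2 without 5XFAD replicate 3 and 1 (Grn) without 5XFAD;Neu cKO replicate 2. Same-numbered libraries correlated at -0.08 to 0.05, and none correlated best with its own number. This check gave no sign that the numbers pair the samples, but it cannot exclude a pairing. The replicate block changed no adjusted call among the cathepsins. For the ratios to the microglial markers it allows no p under 0.0625 (exact sign flips of 5 pairs), the value it gave for Ctss, Ctsb, Ctsf and Ctsl. It moved the count over all genes from 42 to 112, against 73 with DESeq2, 103 without the filter and 26 to 72 with a library left out. The estimate of Vps35 ranged from -0.076 to 0.018 with a library left out, above 0 without 5XFAD replicate 1 (0.0072) or 5XFAD;Neu cKO replicate 2. Relative to the microglial markers, the difference of Ctsc was -0.41 to 0.27 with a library left out, that of Ctsk -0.064 to 0.53 and that of Ctsz -0.022 to 0.16. The unadjusted p of Ctsf relative to the markers was above 0.05 in 7 of the 10 fits with a library left out, and Ctsa, Ctsh and Ctsl had one under 0.05 in 1 each (exact permutation tests). The cause was not tested. Among the 45 pairs, 0 passed under every alternative, and at 5 against 4 libraries the smallest p is 0.0159. The low counts of Ctsc and Ctsk limit their estimates.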
